A study of Mus musculus with 10 samples.

Results

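The genes described here are 10 genes of the G1 phase of the cell cycle, chosen by name: the D-type cyclins Ccnd1, Ccnd2 and Ccnd3, cyclin E1 (Ccne1), the kinases Cdk4 and Cdk6, the INK4 genes Cdkn2a, Cdkn2c and Cdkn2d, and Cdkn1b of the KIP family. They are 10 of the 29955 genes of a table of RNA-seq counts, and all 10 were among the 12282 genes with enough counts to be tested. The cells were a mouse line of Ph+ ALL, a leukaemia of B cell precursors, with BCR-ABL1 p185, the fusion kinase that drives this leukaemia and the target of the kinase inhibitor dasatinib. All groups share this line and this fusion, and the labels give no genotype at Cdkn2a. Derived lines had been grown in rising doses of dasatinib, given as multiples of the dose that inhibits 90% (IC90), or in the vehicle DMSO. There were 3 libraries of cells at 16x IC90 dasatinib, 3 at 1x IC90 dasatinib, 1 of the DMSO 16x line, 1 of the DMSO 1x line and 2 of the parental line. The labels do not say whether the line is 1 clone, nor whether RNA was taken in drug or after recovery without it.

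D-type cyclins bind and activate CDK4 and CDK6, and these kinases phosphorylate RB, which frees E2F factors to switch on the genes of DNA replication. Cyclin E with CDK2 carries this further. INK4 proteins bind CDK4 and CDK6 and block them, whereas p27, the product of Cdkn1b, restrains cyclin E-CDK2. In B cell precursors cyclin D3 serves signalling from the pre-B cell receptor, cyclin D2 follows cytokine and BCR-ABL signals, and ARF, a second product of Cdkn2a, stabilises p53 and limits BCR-ABL1 leukaemia in mice.

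The libraries held 29049760 to 45813092 counts. Levels are given in CPM, the read count of a gene scaled to a fixed library size. Called means an adjusted p under 0.05 (Benjamini-Hochberg over 12282 genes) in edgeR's quasi-likelihood test. In the 3 main comparisons the parental and DMSO libraries formed a drug-free class of 4 libraries, and those with a single DMSO library came from a fit of 5 groups in which that library was assumed to vary like the replicated groups. All 8 markers of B cell precursors were tested, with a summed level of 2442 to 2709 CPM across dasatinib libraries, against 2770 to 3104 CPM across drug-free libraries. Of these markers Ebf1 lay at 0.0955 to 0.717 CPM and Rag1 at 2.98 to 76.05 CPM, whereas each of the others was at 104.6 CPM or more in every library. Markers of stromal cells summed to at most 0.0682 CPM, and those of T cells to 17.2 to 27.4 CPM, nearly all of it Lck, with Cd4 and Cd8b1 at 0. Myeloid markers summed to 3.63 to 8.24 CPM, mostly Lyz2, with Elane at 0. The labels call the dasatinib libraries biological replicates and do not say whether libraries of 1 group came from separate selections or cultures. A p-value therefore speaks only for the spread among these samples, and the spread within a group may be technical. In the 3 main comparisons the spread also holds the differences among the parental and DMSO lines. This applies even where the dasatinib doses are compared with each other, because all libraries share that fit.

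Ccnd3 was the main D cyclin transcript of this line in every library. Per kilobase of transcript, it made up 84.6 to 92.0% of the D cyclin level, Ccnd2 7.72 to 13.4% and Ccnd1 0.0791 to 1.97%. Ccnd3 lay at 2203, 2143 and 2109 CPM in the dasatinib 16x libraries, at 2061, 2121 and 2086 CPM in the dasatinib 1x libraries, at 1937 CPM in DMSO 16x, at 1996 CPM in DMSO 1x and at 2024 and 1973 CPM in the parental line. All 6 dasatinib libraries lay above all 4 drug-free ones, but the whole range was narrow. At 16x Ccnd3 was called higher than in the drug-free class, by a log2 change of 0.12 ± 0.03 (SE, n = 3 against 4, adjusted p = 0.0287 by edgeR). At 1x the log2 change was 0.08 ± 0.03 (adjusted p = 0.219 by edgeR). The call at 16x was lost in 7 of 17 alternatives, among them leaving out dasatinib 16x A (log2 change 0.10, adjusted p = 0.102 by edgeR). The others were leaving out dasatinib 16x B, dasatinib 16x C, dasatinib 1x C, DMSO 1x or parental B, and testing without a filter on low counts. Over the 10 libraries the genes whose log2 CPM ran most like that of Ccnd3 were 2210016L21Rik (Pearson r = 0.97), Tmem128 (r = 0.97) and Sri (r = 0.96), and since libraries share groups, this and the other r given here are descriptions. Ccnd3 is on chromosome 17, but at least 2210016L21Rik is on chromosome 5, most of whose tested genes were called lower in DMSO 16x than in the parental line. The part of that chromosome in this likeness was not tested.

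Ccnd2, the cyclin that follows growth signals, differed more between groups than Ccnd3. Its levels were 745, 804 and 802 CPM in the dasatinib 16x libraries, 590.0, 619 and 583 CPM in the dasatinib 1x libraries, 922 CPM in DMSO 16x, 671 CPM in DMSO 1x, and 508 and 499 CPM in the parental line. No 2 groups overlapped: DMSO 16x was highest, then dasatinib 16x, DMSO 1x, dasatinib 1x and the parental line. Against the drug-free class, which spans the whole range from the parental line to DMSO 16x, Ccnd2 was not called at 16x (log2 change 0.27 ± 0.19, adjusted p = 0.367 by edgeR) or at 1x (-0.12 ± 0.19, adjusted p = 0.747). Against the parental line alone it was called higher at both doses (log2 change 0.64, adjusted p = 1.6e-06 at 16x, and 0.25, adjusted p = 0.00463 at 1x, both by edgeR). Between the doses, 16x stood above 1x by 0.39 ± 0.20 (adjusted p = 0.394, and 4.51e-05 in the fit of 5 groups, both by edgeR). Against DMSO lines of the same step it was called lower, by -0.23 ± 0.05 at 16x (adjusted p = 0.00333 by edgeR) and by -0.17 ± 0.05 at 1x (adjusted p = 0.0499). The second of these was lost without dasatinib 1x A (adjusted p = 0.121 by edgeR), without dasatinib 1x C (0.128), without parental A (0.0937) and without parental B (0.0893). The direction of the dasatinib difference in Ccnd2 therefore depended on which drug-free line was set against it. The genes most like Ccnd2 over the 10 libraries were Stx7 (r = 0.99), Hk2 (r = 0.99) and A430110N23Rik (r = 0.99).

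Ccnd1, a D cyclin that is scarce in lymphoid cells, had the largest ratio of highest to lowest library among the 10 genes, 25.3, against at most 1.87 for the others. It lay at 22.2, 13.5 and 11.3 CPM in the dasatinib 16x libraries, at 3.164, 3.546 and 3.555 CPM in the dasatinib 1x libraries, at 79.9 CPM in DMSO 16x, at 31.8 CPM in DMSO 1x, and at 10.0 and 9.38 CPM in the parental line. DMSO 16x was highest, then DMSO 1x, dasatinib 16x, the parental line and dasatinib 1x, and no neighbouring groups in this order overlapped. The log2 change was -3.26 ± 0.79 at 1x against the drug-free class. This was not called (adjusted p = 0.0737 by edgeR), although all 3 libraries at 1x lay below all 4 drug-free ones and DESeq2 called it (adjusted p = 0.000497). It was called in 5 of 17 alternatives: by DESeq2, without parental B (adjusted p = 0.049 by edgeR), in the fit of 5 groups (0.000547), against both DMSO lines in that fit (0.000207), and with a replicate block without the DMSO libraries (1.43e-23). Each fit with this block held only the parental libraries and those of the dose tested. It left almost no residual degrees of freedom, so its adjusted p is weak evidence. The size of the change rested on the DMSO libraries: it was -1.52 in the fit that left both out and -1.495, not called, against the parental line alone. At 16x the log2 change against the drug-free class was -1.07 ± 0.69 (adjusted p = 0.33), against the parental line alone it was 0.70 (adjusted p = 0.149 by edgeR), and with the replicate block without the DMSO libraries it was called higher, at 0.84 (adjusted p = 0.0286). Between the doses, 16x stood above 1x by 2.19 ± 0.79 without overlap (adjusted p = 0.208, and 0.00612 in the fit of 5 groups, both by edgeR).

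Against DMSO lines of the same step, Ccnd1 was called lower at both doses, by -2.35 ± 0.31 at 16x (adjusted p = 0.00211 by edgeR) and by -3.21 ± 0.35 at 1x (adjusted p = 0.00292). Both calls held in all 12 alternatives. The DMSO 16x line itself was called higher than the parental line for Ccnd1, by 3.05 ± 0.36 (adjusted p = 0.00144), and the log2 change of DMSO 1x was 1.72 ± 0.37 (adjusted p = 0.0569 by edgeR). Each DMSO library stands in both kinds of comparison, as the group set against dasatinib and as the group set against the parental line. DMSO 1x against parental was called by DESeq2 (adjusted p = 0.00081) and in the fits without dasatinib 16x A (2.82e-07), without dasatinib 16x C (0.0222) or without DMSO 16x (0.0431).

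Markers of erythroid cells followed Ccnd1 only in part. Both were highest in DMSO 16x, but the dasatinib 16x libraries lay above DMSO 1x for the summed markers and below it for Ccnd1. The 6 markers summed to 27.1, 26.1 and 17.0 CPM in the dasatinib 16x libraries, 5.16, 5.51 and 4.51 CPM at 1x, 35.8 CPM in DMSO 16x, 12.3 CPM in DMSO 1x, and 5.66 and 5.26 CPM in the parental line. Almost all of this was Hbb-b1, an adult beta globin, at 3.505 to 34.4 CPM. The defining markers Gata1 and Epor stayed at or below 0.241 and 0.273 CPM, and Klf1 and Alas2 at or below 0.49 and 0.858 CPM. None of the 3 tested markers was called in the main comparisons, whereas Hbb-b1 was called higher than in the parental line in DMSO 16x (log2 change 3.03) and DMSO 1x (1.41), and lower in dasatinib 1x than in DMSO 1x (-1.53). The part of these transcripts in the Ccnd1 result was not tested. The gene whose level ran most like that of Ccnd1 over the 10 libraries was another beta-like globin, Hbb-bh1 (Pearson r = 0.98 on log2 CPM), followed by I830077J02Rik (r = 0.98) and Ceacam16 (r = 0.98). Hbb-bh1 lay at 3.25, 3.97 and 2.60 CPM in dasatinib 16x, 0.443, 0.453 and 0.252 CPM in dasatinib 1x, 31.0 CPM in DMSO 16x, 10.2 CPM in DMSO 1x, and 1.81 and 1.46 CPM in the parental line. Ccnd1 and both globin genes are on chromosome 7, whose 865 tested genes had a median log2 change of 0.03 in DMSO 16x against parental, beside -0.01 for the other tested genes.

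**Figure D1:**
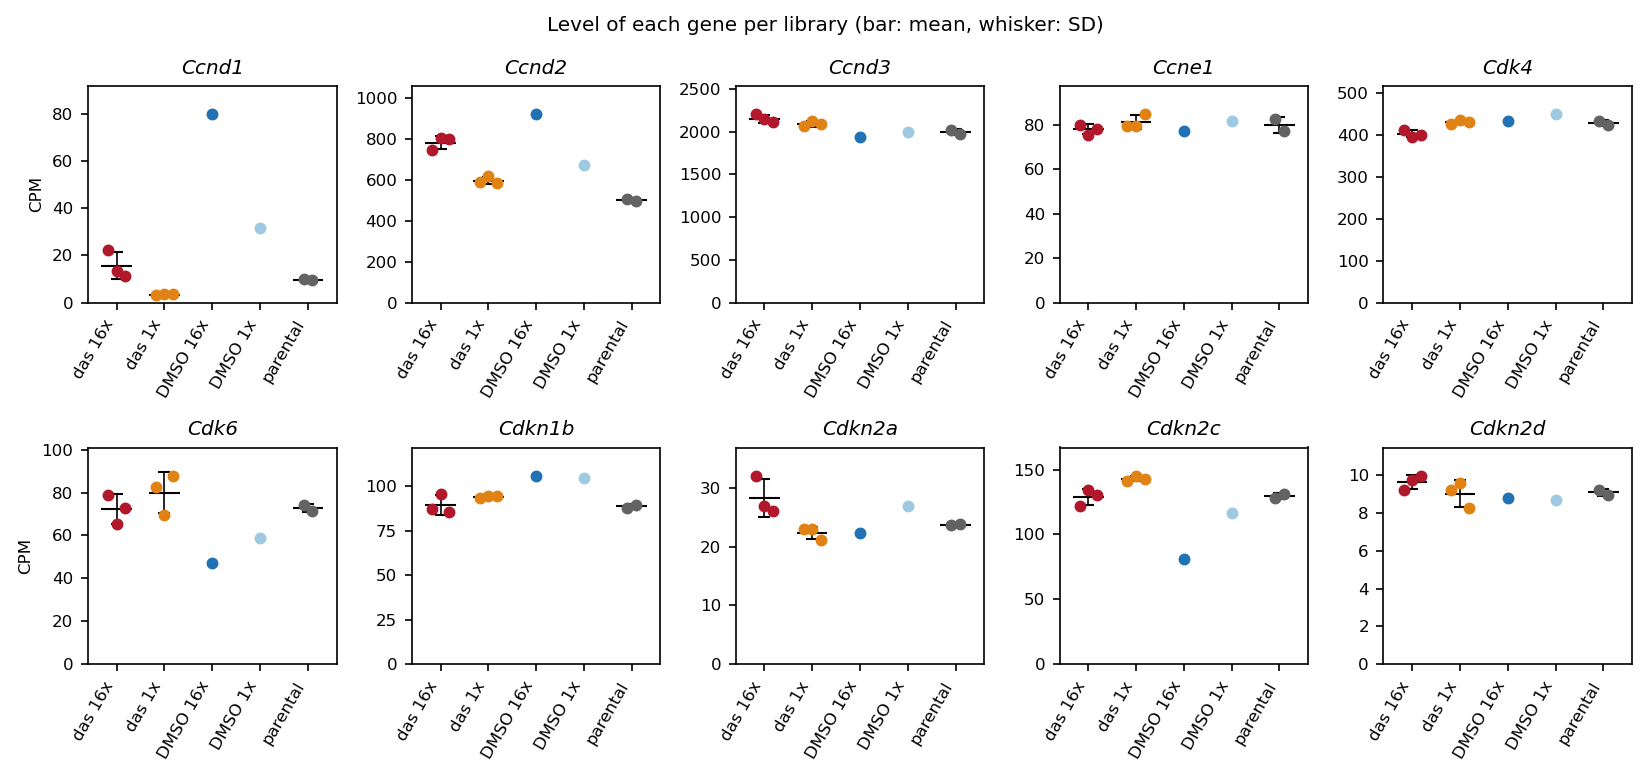
Level of each of the 10 genes per library, in CPM on linear axes that start at 0, for dasatinib 16x and 1x (n = 3 each), DMSO 16x and DMSO 1x (1 library each) and the parental line (n = 2). Points are libraries, horizontal bars means and whiskers SD, and Ccnd1, Ccnd2, Cdk6 and Cdkn2c set the DMSO 16x library apart from the parental ones, whereas Ccne1 and Cdkn2d lie level.

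Cyclin E1, the partner of CDK2, was called in none of the 8 comparisons. Ccne1 lay at 77.97 ± 2.26 CPM in dasatinib 16x and 81.2 ± 3.17 CPM in dasatinib 1x (SD, n = 3 each), against 79.7 ± 2.84 CPM in the drug-free class (SD, n = 4). Its log2 change against that class was -0.03 at 16x, with a 95% interval of -0.12 to 0.06, and 0.03 at 1x, with an interval of -0.07 to 0.12. Over all 10 libraries its levels ran between 75.7 and 84.8 CPM, and the genes most like it were Cytor4 (r = 0.85), Bbs9 (r = 0.85) and Stam2 (r = 0.83).

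Cdk4 was the main transcript of the kinase pair. Per kilobase of transcript its level was 27.5 to 51.6 times that of Cdk6. In CPM it was 4.896 to 9.196 times, and the lengths used were 2053 bases for Cdk4 and 11525 for Cdk6. Cdk4 lay at 412, 396 and 400.4 CPM in the dasatinib 16x libraries, at 427, 435 and 430.3 CPM in the dasatinib 1x libraries, at 432 CPM in DMSO 16x, at 449.5 CPM in DMSO 1x, and at 434 and 424 CPM in the parental line. The 16x libraries lay below all others without overlap. Cdk4 was called lower at 16x than in the drug-free class, by -0.11 ± 0.03 (adjusted p = 0.0354 by edgeR), and its log2 change at 1x was -0.01 ± 0.03 (adjusted p = 0.819). The call at 16x was lost in 11 of 17 alternatives: without any 1 of the 6 dasatinib libraries, DMSO 1x or parental A, without a filter on low counts, against the parental line alone, and with a replicate block. Adjusted p ran from 0.00118 (DESeq2) to 0.172 over these 17, and the log2 change from -0.13 to -0.09.

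The Cdk4 promoter window is shown because it holds 4 copies of CACGTG, the E-box bound by MYC, more than any other window of the 10 genes. RefSeq windows on GRCm38.p6, from 250 bases before to 50 after a start, matched 8 of the 10 genes, with 11 windows in all. The words searched on both strands were CACGTG for MYC, TTTCCCGC, TTTCGCGC, TTTGCCGC and TTTGGCGC for E2F, TTCNNNGAA for STAT and GTAAACA for FOXO, and no matches in the windows of the 10 genes overlapped. In the window below, chr10:127063285-127063584 on the + strand, capitals mark CACGTG, which starts at -172, -118, -98 and -11 from the start of transcription.
Cdk4: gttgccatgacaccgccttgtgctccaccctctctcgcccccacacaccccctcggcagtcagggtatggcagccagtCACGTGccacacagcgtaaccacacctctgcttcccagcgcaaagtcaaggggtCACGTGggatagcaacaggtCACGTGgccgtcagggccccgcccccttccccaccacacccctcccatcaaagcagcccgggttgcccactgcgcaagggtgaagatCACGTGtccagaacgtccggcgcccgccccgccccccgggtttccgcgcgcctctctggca
Of 32851 RefSeq windows of 300 bases, 7.15% hold CACGTG, 2.26% an E2F word, 8.3% the STAT word and 3.65% the FOXO word. Among the genes described here, the windows of Cdk6 (at -220) and Cdkn2c (at 35 in the window of its second start) hold 1 CACGTG each. A match is a word in the sequence and no evidence of binding. Myc, named here after its values were seen, lay at 400.1 ± 11.2 CPM in dasatinib 16x, 369 ± 9.51 CPM in dasatinib 1x (SD, n = 3 each), 441 CPM in DMSO 16x, 408.5 CPM in DMSO 1x and 368 ± 1.09 CPM in the parental line (n = 2). The genes most like Cdk4 over the 10 libraries were Chaf1b (r = 0.97), which encodes a chromatin assembly subunit, Bhlhb9 (r = 0.96) and Pcna (r = 0.96), the sliding clamp of DNA replication.

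Cdk6, the other partner of the D cyclins, lay at 79.0, 65.3 and 72.8 CPM in dasatinib 16x, 82.6, 69.6 and 87.9 CPM in dasatinib 1x, 47.0 CPM in DMSO 16x, 58.7 CPM in DMSO 1x, and 74.1 and 71.5 CPM in the parental line. The DMSO libraries were the lowest, and the dasatinib libraries overlapped the parental ones. It was called higher in dasatinib 16x than in DMSO 16x, by 0.62 ± 0.15 (adjusted p = 0.0159 by edgeR), and lower in DMSO 16x than in the parental line, by -0.63 ± 0.16 (adjusted p = 0.0214). The first call was lost without a filter on low counts (adjusted p = 0.0512 by edgeR), and the second there (0.0669) and without parental A (0.071) or parental B (0.0599). The 1x values were 0.45 ± 0.15 for dasatinib 1x against DMSO 1x (adjusted p = 0.103) and -0.31 ± 0.15 for DMSO 1x against parental (adjusted p = 0.307 by edgeR). The first of these was called by DESeq2 (0.00255) and without dasatinib 1x B (0.54, adjusted p = 0.00982 by edgeR). Against the drug-free class the log2 change of Cdk6 was 0.21 ± 0.15 at 16x (adjusted p = 0.399) and 0.35 ± 0.15 at 1x (adjusted p = 0.246 by edgeR).

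Cdk6 is on chromosome 5, and most tested genes of that chromosome moved with it. Of its 736 tested genes, 557 were called higher and 23 lower in dasatinib 16x against DMSO 16x, with a median log2 change of 0.54, beside -0.01 for the other tested genes. In DMSO 16x against parental, 25 were called higher and 516 lower, with a median of -0.47. Measured from the chromosome's median, Cdk6 stood 0.08 higher in dasatinib 16x against DMSO 16x and 0.16 lower in DMSO 16x against parental. Of the chromosome's genes, 63.0% had a log2 change below that of Cdk6 in the first comparison and 27.7% in the second, so both Cdk6 values lay between the quartiles of the chromosome. At the 1x step Cdk6 stood further out, above 88.2% of the chromosome's genes in dasatinib 1x against DMSO 1x and above 20.2% in DMSO 1x against parental. The part of the chromosome in the Cdk6 result was not tested. Closest to Cdk6 in level over the libraries were AK152437 (r = 0.99), Tbc1d23 (r = 0.96) and Anln (r = 0.96).

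**Figure D2:**
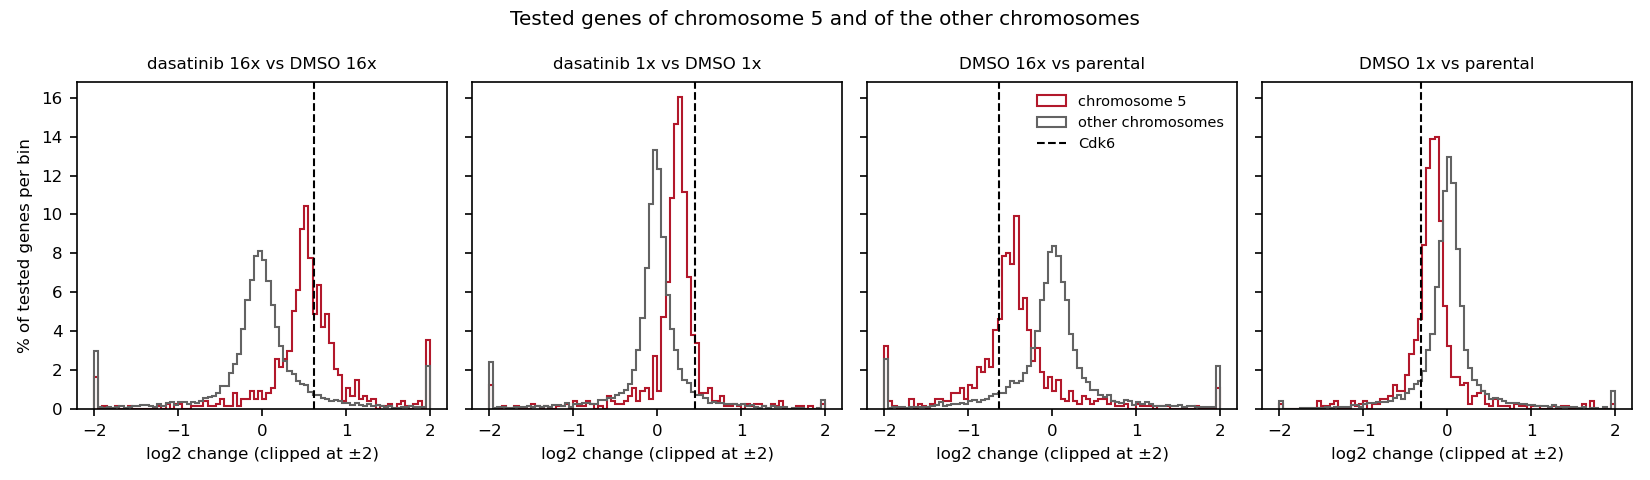
Distribution of log2 change over tested genes of chromosome 5 (red) and of the other chromosomes (grey), as % of genes per bin, in 4 comparisons, with values beyond ±2 gathered at the ends. The dashed line is Cdk6, which lies on the same side of 0 as most chromosome 5 genes, whose medians are 0.54, 0.25, -0.47 and -0.17 in the panels left to right.

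Among the INK4 genes Cdkn2c, which encodes p18, held the largest share of the summed level per kilobase, 51.3 to 66.2%, against 27.2 to 39.1% for Cdkn2a and 6.64 to 9.66% for Cdkn2d. Cdkn2c lay at 122, 134 and 130.2 CPM in dasatinib 16x, 141, 145 and 143 CPM in dasatinib 1x, 81.4 CPM in DMSO 16x, 116.5 CPM in DMSO 1x, and 128 and 131 CPM in the parental line. Both DMSO libraries lay below all 8 others. It was called higher in dasatinib than in the DMSO line of the same step, by 0.66 ± 0.06 at 16x (adjusted p = 2.71e-06 by edgeR) and by 0.30 ± 0.05 at 1x (adjusted p = 0.00367), and lower in DMSO 16x than in the parental line, by -0.67 ± 0.06 (adjusted p = 5.49e-06). These 3 calls held in all 12 alternatives. Against the drug-free class the log2 change was 0.17 ± 0.14 at 16x (adjusted p = 0.429) and 0.33 ± 0.14 at 1x (adjusted p = 0.236 by edgeR). Against the parental line alone that at 16x was -0.01 (adjusted p = 0.928 by edgeR). All 3 libraries at 1x lay above all 4 drug-free ones, and 3 of 17 alternatives called the change at 1x. They include the fit of 5 groups (adjusted p = 5.73e-06) and that fit against both DMSO lines (1.53e-06, both by edgeR). The other, a replicate block without the DMSO libraries, gave a log2 change of 0.15. Dasatinib 16x lay below 1x without overlap, at -0.15 ± 0.15 (adjusted p = 0.702, and 0.02 in the fit of 5 groups, both by edgeR).

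The 16x minus 1x difference of Cdkn2c was tested against the same difference in DMSO. It was less negative in dasatinib, by 0.37 ± 0.08 (adjusted p = 0.014 by edgeR), and this call held in all 11 alternatives. The means behind it were 129 ± 6.38 CPM at 16x and 143 ± 2.10 CPM at 1x in dasatinib (SD, n = 3 each), and 81.4 CPM at 16x and 116.5 CPM at 1x in DMSO (1 library each). The genes most like Cdkn2c over the 10 libraries were Mospd3 (r = 0.99), Adarb1 (r = 0.99) and Cxxc5 (r = 0.99).

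Cdkn2a has 1 row in the table, although it encodes 2 unrelated proteins, INK4a and ARF, from separate first exons, so the counts cannot tell one from the other. The 2 promoter windows of the gene are shown for this reason: the start farther upstream is that of ARF and the one downstream that of INK4a, by the textbook order of the locus. Both are on the - strand of GRCm38.p6, at chr4:89294570-89294869 and chr4:89282143-89282442, and capitals mark the E2F word, which starts at -99 in the upstream window and is absent from the other.
Cdkn2a upstream: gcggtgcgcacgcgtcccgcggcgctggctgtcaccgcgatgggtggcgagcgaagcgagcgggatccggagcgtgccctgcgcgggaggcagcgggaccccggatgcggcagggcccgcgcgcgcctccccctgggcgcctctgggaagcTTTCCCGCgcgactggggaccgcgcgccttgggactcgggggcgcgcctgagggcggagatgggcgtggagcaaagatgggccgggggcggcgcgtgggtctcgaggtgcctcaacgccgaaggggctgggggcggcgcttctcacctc
Cdkn2a downstream: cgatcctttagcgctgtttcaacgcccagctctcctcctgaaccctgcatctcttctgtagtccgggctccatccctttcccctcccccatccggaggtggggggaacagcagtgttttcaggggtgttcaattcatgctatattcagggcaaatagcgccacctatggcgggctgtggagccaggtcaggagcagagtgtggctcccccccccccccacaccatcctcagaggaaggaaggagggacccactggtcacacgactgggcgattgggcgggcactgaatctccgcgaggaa
The level of Cdkn2a was 32.1, 26.9 and 26.1 CPM in dasatinib 16x, 23.1, 23.0 and 21.2 CPM in dasatinib 1x, 22.4 CPM in DMSO 16x, 26.9 CPM in DMSO 1x, and 23.75 and 23.8 CPM in the parental line. The 16x libraries lay above those at 1x without overlap, and dasatinib 16x A stood apart within its group. The log2 change of 16x against 1x was 0.34 ± 0.09 (adjusted p = 0.102 by edgeR, and 0.0253 by DESeq2), and without DMSO 16x the adjusted p was 0.0335 by edgeR. Of 15 alternatives 4 called it, the others being the fit of 5 groups (adjusted p = 0.0113) and a replicate block (0.0176, both by edgeR). Against the drug-free class the log2 change was 0.23 ± 0.09 at 16x (adjusted p = 0.101) and -0.11 ± 0.09 at 1x (adjusted p = 0.495 by edgeR). That at 16x was called in 2 of 17 alternatives. These were the fit of 5 groups (0.22, adjusted p = 0.0293) and the parental line alone (0.26, adjusted p = 0.0455, both by edgeR). Cdkn2a was called higher in dasatinib 16x than in DMSO 16x, by 0.34 ± 0.11 (adjusted p = 0.0295 by edgeR), a call lost by DESeq2 (0.0546), without parental A (0.0518) and without parental B (0.0529).

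The 16x minus 1x difference of Cdkn2a in dasatinib exceeded that in DMSO by 0.61 ± 0.15 (adjusted p = 0.0356 by edgeR). The means were 28.4 ± 3.26 CPM at 16x and 22.4 ± 1.03 CPM at 1x in dasatinib (SD, n = 3 each), and 22.4 CPM at 16x and 26.9 CPM at 1x in DMSO (1 library each). The call was lost in 5 of 11 alternatives, which left out dasatinib 1x A (adjusted p = 0.0642 by edgeR), dasatinib 1x B (0.0572), dasatinib 1x C (0.0806), parental A (0.0749) or parental B (0.0746). Of 10 neighbours of Cdkn2a, 3 were tested and none was called in the main comparisons. They were Mtap, Klhl9 and Cdkn2b, the INK4 gene beside Cdkn2a, which lay at 1.58 ± 0.15 CPM in dasatinib 16x and 1.56 ± 0.32 CPM in dasatinib 1x (SD, n = 3 each), against 1.34 ± 0.62 CPM in the drug-free class (SD, n = 4). In dasatinib 16x against the single DMSO 16x library all 3 were called, beside 35.7% of all tested genes. Mtap (log2 change 0.24) and Cdkn2b (0.97) were higher and Klhl9 (-0.26) lower. The genes most like Cdkn2a over the 10 libraries were Map4k5 (r = 0.92), Pcid2 (r = 0.90) and Gm14124 (r = 0.90).

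Cdkn2d, which encodes p19 INK4d, was the least abundant INK4 gene and was called in none of the 8 comparisons. It lay at 9.23 to 9.975 CPM in dasatinib 16x and 8.245 to 9.61 CPM in dasatinib 1x, against 8.70 to 9.235 CPM in the drug-free libraries. The log2 change against the drug-free class was 0.11 at 16x, with a 95% interval of -0.06 to 0.28, and 0.02 at 1x, with an interval of -0.16 to 0.19. Its level ran most like those of Kif9 (r = 0.91), Rpp38 (r = 0.88) and Plec (r = 0.88).

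Cdkn1b, which encodes p27, lay at 87.1, 95.8 and 85.3 CPM in dasatinib 16x, 93.15, 94.2 and 94.45 CPM in dasatinib 1x, 105.8 CPM in DMSO 16x, 104.6 CPM in DMSO 1x, and 87.9 and 89.5 CPM in the parental line. The DMSO libraries were the highest, and the dasatinib 16x libraries overlapped the parental ones. Cdkn1b was called higher than in the parental line in DMSO 16x, by 0.25 ± 0.06 (adjusted p = 0.00852 by edgeR), and in DMSO 1x, by 0.24 ± 0.06 (adjusted p = 0.0467). It was called lower in dasatinib 16x than in DMSO 16x, by -0.24 ± 0.06 (adjusted p = 0.00652), and its value at 1x was -0.16 ± 0.06 (adjusted p = 0.116 by edgeR). The call for DMSO 1x was lost without dasatinib 1x A (adjusted p = 0.073 by edgeR), B (0.0583) or C (0.0747) and without parental A (0.201) or B (0.187), and that for DMSO 16x against parental without parental A (0.0521). Against the drug-free class the log2 change was -0.12 ± 0.07 at 16x (adjusted p = 0.309) and -0.05 ± 0.07 at 1x (adjusted p = 0.753 by edgeR). Over the 10 libraries Cdkn1b ran most like Zbtb42 (r = 0.97), Hdac9 (r = 0.97) and Ube2c (r = 0.95).

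Against the drug-free class, 2 of the 10 genes were called at 16x, Ccnd3 higher and Cdk4 lower, where 16.1% of all tested genes were called, 7.79% higher and 8.33% lower. At 1x none of the 10 was called by edgeR, where 1.96% of tested genes were. At an unadjusted p under 0.05 there were 4, beside 2432 of the 12282 tested genes, and DESeq2 called 1, Ccnd1, beside 853 genes. Between 16x and 1x none was called, beside 2.13% of tested genes. There 3 had an unadjusted p under 0.05, beside 1942 tested genes, and DESeq2 called 2, Cdkn2a and Cdk4, beside 805. The groups did not overlap for 2 of the 10 at 16x against the drug-free class, for 3 at 1x and for 5 between the doses, beside 28.3%, 23.6% and 30.6% of tested genes. Counts of 2 and 3 among 10 genes are close to the shares among all tested genes. The count of 5 lies above its share, but with only 10 genes this was not tested.

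**Figure D3:**
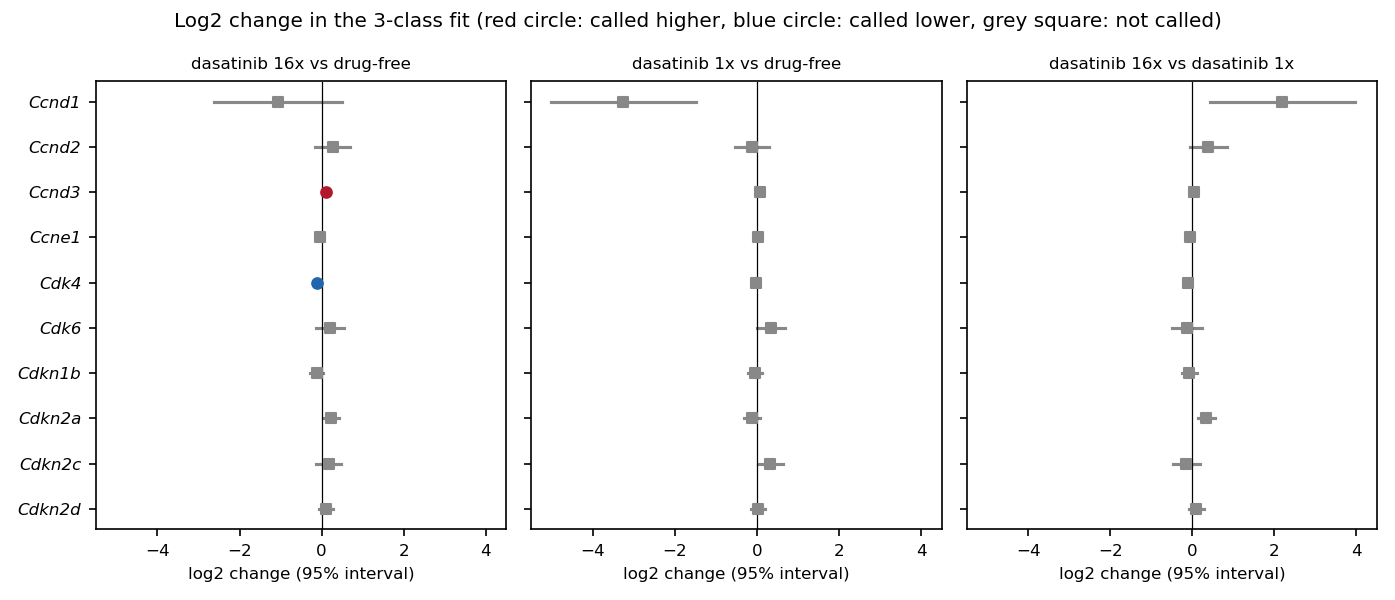
Log2 change of each gene with its 95% interval in 3 comparisons: dasatinib 16x and 1x against the drug-free class, and 16x against 1x. The 2 called genes, Ccnd3 at 0.12 and Cdk4 at -0.11 in dasatinib 16x, have small changes, and Ccnd1 has the widest intervals.

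Against the DMSO line of the same step, 7 of the 10 were called at 16x, 4 higher (Ccnd3, Cdk6, Cdkn2a and Cdkn2c) and 3 lower (Ccnd1, Ccnd2 and Cdkn1b). In all tested genes the share called there was 35.7%, 18.9% higher and 16.8% lower. At 1x 3 were called, Cdkn2c higher and Ccnd1 and Ccnd2 lower, beside 13.5% of tested genes, 6.86% higher and 6.66% lower. Against the parental line, DMSO 16x had 5 called, Ccnd1, Ccnd2 and Cdkn1b higher and Cdk6 and Cdkn2c lower, beside 30.9% of tested genes, 14.7% higher and 16.2% lower. DMSO 1x had 2, Ccnd2 and Cdkn1b, both higher, beside 6.17% of tested genes, of which 3.31% of tested genes were higher. The difference of the 16x minus 1x steps was called higher in dasatinib for 2, Cdkn2a and Cdkn2c, beside 6.74% of tested genes, 5.37% higher. For the other 8 genes this difference ran between -0.09 for Cdkn1b and 0.86 for Ccnd1, and none was called. The lists against DMSO and against parental share the DMSO libraries, so a low or high DMSO library gives opposite signs in both.

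**Figure D4:**
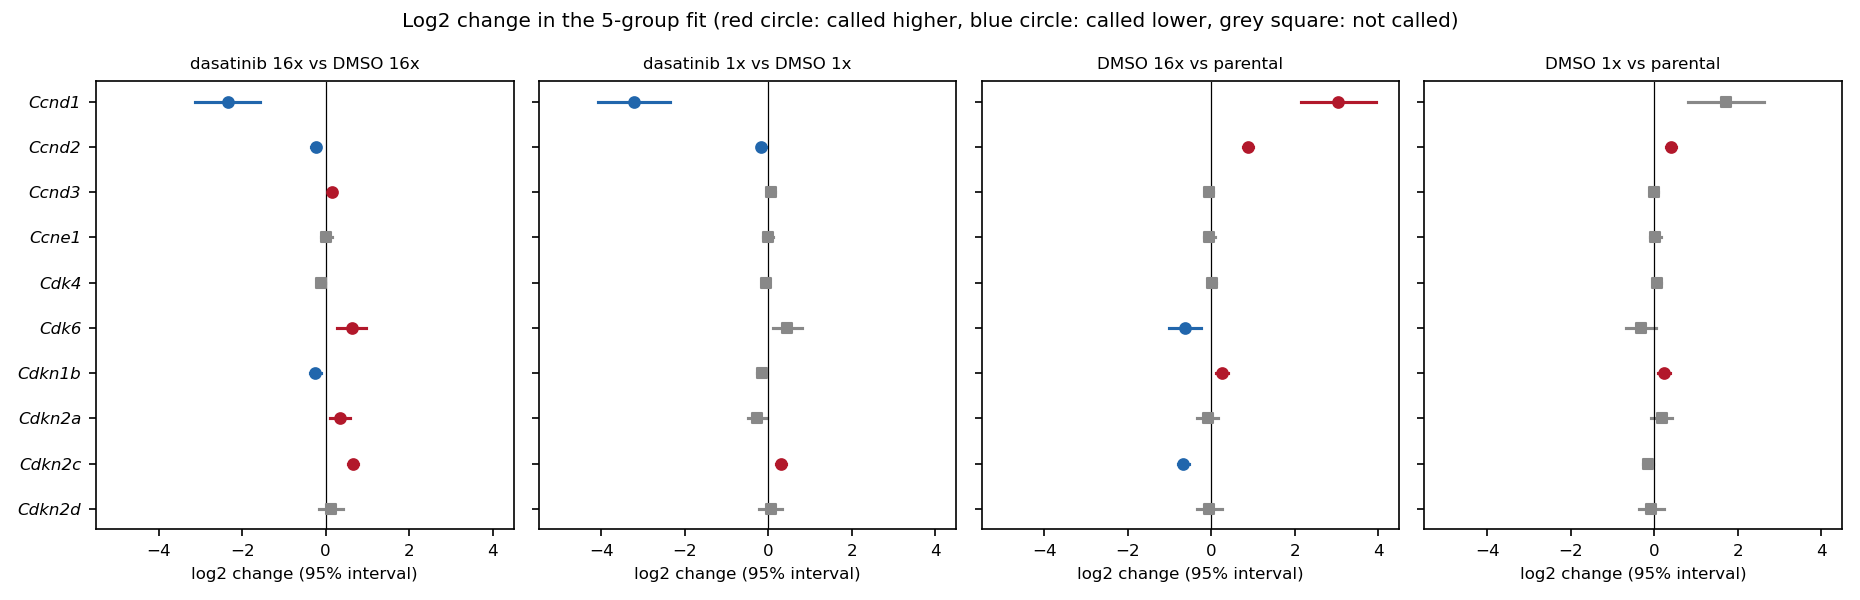
Log2 change of each gene with its 95% interval against a single DMSO library (dasatinib 16x and 1x) and of each DMSO line against the parental line. Ccnd1 and Ccnd2 lie below 0 in the dasatinib panels and above 0 in both DMSO panels, and Cdkn2c lies on the opposite sides, with the DMSO library shared between the panels of a step.

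Genes further along the pathway were read from lists written by hand, and their counts at 16x against the drug-free class stand beside 7.79% of all tested genes called higher and 8.33% called lower, 16.1% in all. Of 28 tested E2F-induced genes of the G1/S transition, 15 were called lower and none higher in dasatinib 16x against the drug-free class, with a median log2 change of -0.18 beside -0.004 for all tested genes. Uhrf1, a factor of maintenance methylation, was at 401 ± 10.99 CPM in dasatinib 16x, against 501 ± 20.05 CPM in the drug-free class (log2 change -0.32, adjusted p = 0.001 by edgeR). E2f2, an activating E2F, had a log2 change of -0.37 (adjusted p = 0.00181). At 1x none of the 28 was called by edgeR in the fit of 3 classes. DESeq2 called 2, beside 853 of all tested genes, and the fit of 5 groups 12, beside 3449 of 12282. Between 16x and 1x 3 were called lower, Pcna, E2f2 and Uhrf1, beside 2.13% of all tested genes called. That count of 3 fell to 0 without any 1 of dasatinib 1x A, B or C or dasatinib 16x A or C, and to 1 without DMSO 1x. It was 10 without DMSO 16x (beside 978 of all tested genes), 11 by DESeq2 (beside 805) and 21 in the fit of 5 groups (beside 1669). The summed level of the 29 listed genes was 7066 to 7130 CPM in dasatinib 16x and 7803 to 7866 CPM in dasatinib 1x, against 7738 to 8084 CPM in the drug-free libraries. Of these 28, 8 were called when dasatinib 16x C was left out, and 10 when A or B of that group was.

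Of the RB family and its E2F and DP partners, 6 of 17 were called lower and 1 higher at 16x against the drug-free class. They include Tfdp2, a DP partner, at 49.5 ± 5.39 CPM in dasatinib 16x, against 92.6 ± 12.6 CPM in the drug-free class (log2 change -0.90, adjusted p = 0.00135 by edgeR), and Rbl1, which encodes the RB relative p107 (-0.22, adjusted p = 0.00331). Tfdp2, E2f2 and E2f7 were called lower between 16x and 1x, a count that also fell to 0 without any 1 of those 5 dasatinib libraries and to 1 without DMSO 1x. Of 13 other tested cyclins, kinases and inhibitors of G1/S, 2 were called higher and 2 lower at 16x. Cdkn1a, which encodes the p53 target p21, was at 95.2 ± 11.9 CPM in dasatinib 16x, against 52.6 ± 11.5 CPM in the drug-free class (log2 change 0.85 ± 0.15, adjusted p = 0.00629). It was also called higher in DMSO 16x than in the parental line (0.63 ± 0.13, adjusted p = 0.0054 by edgeR). Cdk2, the partner of cyclin E, was at 118 ± 2.39 CPM in dasatinib 16x, against 135 ± 1.12 CPM in the drug-free class (-0.20 ± 0.03, adjusted p = 0.00389). Cdc25b, a phosphatase that activates CDKs, had a log2 change of -0.21 (adjusted p = 0.0187). The count of these other genes called was 2 without dasatinib 16x A or dasatinib 16x C.

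Of 15 tested markers of cell division, 6 were called lower at 16x and none higher (median log2 change -0.12), among them Top2a (-0.20), Bub1b (-0.19) and Kif11 (-0.24). Their count was 3 when dasatinib 16x A, dasatinib 16x C or DMSO 1x was left out. Of 20 tested genes for the turnover of cyclins and p27, 1 was called higher and 4 lower, with Usp37 at -0.28, Skp1a at -0.14 and Dtl at -0.36. Of 22 tested regulators of Cdkn2a and members of the ARF, MDM2 and p53 axis, 2 were called higher and 4 lower, with the Polycomb gene Cbx2 at -0.44 (adjusted p = 0.000267), Runx1 at -0.28 and Ets1 at -0.65. Between 16x and 1x these same 3 were called lower. Of 24 upstream inputs, 4 were called lower and none higher, about the share of all tested genes, with Ikzf3, an Ikaros family factor, at -0.64 (adjusted p = 0.00264), Foxo4 at -0.35 and Pax5 at -0.39. By edgeR in the fit of 3 classes no gene of these lists was called at 1x against the drug-free class. There DESeq2 called 1 division marker and 2 E2F-induced genes, beside 853 of all tested genes. The fit of 5 groups called 4 of the RB family and its partners, 3 of the other G1/S genes and 3 division markers at 1x, beside 3449 of 12282 tested genes. Without DMSO 16x, 1 other G1/S gene was called at 1x, beside 516 of all tested genes. The B cell precursor markers had 5 of 8 called lower at 16x, with Rag1 at -3.46 and Pax5 at -0.39. In bulk RNA, fewer cells of a kind and less RNA per cell cannot be told apart.

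**Figure D5:**
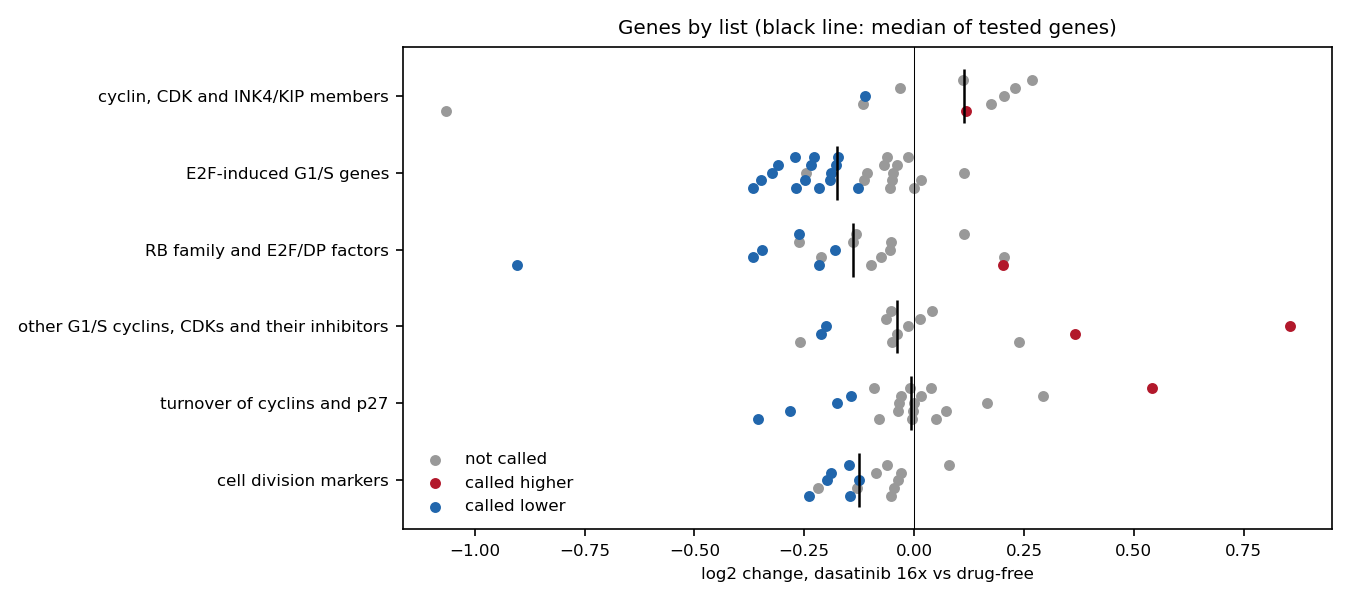
Log2 change in dasatinib 16x against the drug-free class, 1 point per tested gene, for the 10 genes described here and 5 lists, with medians as black lines. E2F-induced genes lie mostly below 0 with 15 of 28 called lower (blue), whereas the 10 genes themselves have 1 called in each direction.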

How the data were processed

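The values used are raw counts per gene symbol that the authors deposited for 10 libraries, with build mm9. The submitters' processing notes name HTSeq 0.6.1, TopHat2 2.0.12, BWA 0.7.10, SAMtools, Trimmomatic 0.33, CASAVA 1.7.0 and DESeq, with no role or order. Neither the annotation nor the strand setting is given in the sources used here. Reads of overlapping or antisense genes therefore cannot be separated.

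The table lists 29955 genes, of which 18621 were counted at least once, and filterByExpr (minimum count 10) kept 12282. TMM scaling came before edgeR's quasi-likelihood test (edgeR 4.0.16, robust, R 4.3.3), adjusted by Benjamini-Hochberg at 0.05. The fit of 3 classes had a biological coefficient of variation of 15.3% on 7 residual degrees of freedom, and the fit of 5 groups 7.27% on 5. SE were taken from the F statistic, and intervals are at 95%. DESeq2 1.42.0 was an alternative. Scripts were tested on simulated data. Counts of the 10 genes ran from 100 to 100238 per library. Replicates of a group differed beyond sampling noise (chi-square per degree of freedom 1.91 to 16.9) and were kept apart.

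Levels per kilobase used the longest RefSeq-matched transcript, on GRCm38. Promoter windows, from RefSeq on GRCm38.p6, were not given here for Ccnd1 and Ccnd2. Chromosomes were matched by symbol for 11327 of the tested genes. Log2 CPM for likeness used a prior count of 2.

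The 10 genes, the lists, the comparisons and the alternatives were chosen with earlier results of these data known, and the promoter words after the counts had been read. All 10 genes were read in every comparison, and the text gives the values that the results turn on. From each list the 3 called genes with the smallest adjusted p were named in each main comparison, and for likeness the 3 genes with the highest r were named per gene. Some genes that this rule or the marker lists name are not reported here, though they remain in the counts and sums. Other names were chosen after their values were seen.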

Additional observations from a re-analysis of the deposited data

Results flagged for a closer look

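The 16x minus 1x difference of Cdkn2a was larger in dasatinib than in DMSO by 0.61 on the log2 scale, by edgeR's test of the difference itself. The same held for Cdkn2c, by 0.37. The DMSO side of both rests on 1 library per step. In the 4 drug-free libraries, no gene of the 10 had a highest or lowest library whose gap to the next, as a share of the range, passed 0.829. The largest share was 0.709, for Cdkn2c in DMSO 16x.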

How the results depend on the processing

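Counts of called genes in the 3 main comparisons moved with the fit. The fit of 5 groups was also used wherever the parental line or both DMSO lines alone were set against dasatinib, so those settings change the fit and the libraries together. At 1x against the drug-free class 241 genes and 0 of the 10 were called. DESeq2 called 853 genes and 1 of the 10, the parental line alone 708 and 1, both DMSO lines 4149 and 5, and the fit of 5 groups 3449 and 5. At 16x against the drug-free class 1980 genes and 2 of the 10 were called. The parental line alone gave 3252 genes, both DMSO lines 4518 and 6 of the 10, the fit of 5 groups 4542 and 8, and no filter on low counts 0 of the 10. Between 16x and 1x 262 genes and 0 of the 10 were called, against 805 and 2 by DESeq2 and 1669 and 5 in the fit of 5 groups. The fit of 3 classes counts differences among the parental and DMSO lines as spread. Its biological coefficient of variation was 15.3%, against 7.27% in the fit of 5 groups. The part of this in the counts was not tested, nor were other causes.

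The labels do not say whether the letters A, B and C pair the samples, and the main fits did not treat them as pairs. Same-letter deviations of the dasatinib libraries correlated weakly, at 0.0273 to 0.0647, and each correlated best with its own letter. These values cannot settle the pairing. With a replicate block, and without the DMSO libraries where the drug-free class is used, 2152 genes and 3 of the 10 were called at 1x, and 1124 genes and 4 of the 10 between the doses. The block fits of a dose against the parental libraries left almost no residual degrees of freedom, so their calls are weak evidence. Signs turned under this block at 1x for Ccnd2 (0.26), Ccne1 (-0.00963), Cdk4 (0.00671) and Cdkn1b (0.0785), and at 16x for Ccnd1 (0.84), Cdk6 (-0.0188), Cdkn1b (0.0432) and Cdkn2c (-0.0147). Against the parental line alone they turned at 1x for Ccnd2 (0.25), Cdk4 (0.00628), Cdkn1b (0.0827) and Cdkn2d (-0.0110), and at 16x for Ccnd1 (0.70), Cdk6 (-0.00638), Cdkn1b (0.0109) and Cdkn2c (-0.00669). Against both DMSO lines Ccnd2 at 16x turned to -0.00592. None of these genes was called at that dose against the drug-free class in the fit of 3 classes. Turned values that were called were Ccnd2 at 1x under the block (adjusted p = 3.72e-09 by edgeR) and against the parental line (0.00463), and Ccnd1 at 16x under the block (0.0286).

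Leaving out 1 library at a time gave 17 (without dasatinib 1x B) to 516 genes (without DMSO 16x) at 1x against the drug-free class and 0 to 1 of the 10, and 1005 (without dasatinib 16x C) to 2765 (without DMSO 16x) and 0 to 3 at 16x. Between the doses it gave 41 (without dasatinib 1x C) to 978 (without DMSO 16x) and 0 to 1. For DMSO 1x against parental it gave 110 (without parental B) to 1410 (without dasatinib 16x A) and 1 to 4, and for DMSO 16x against parental 2582 to 4541 and 3 to 5. For dasatinib against DMSO it gave 1226 to 2265 and 2 to 4 at 1x, and 3873 to 4870 and 6 to 8 at 16x. For the difference of steps it gave 538 to 1248 and 1 to 3. Some log2 changes crossed 0. At 1x against the drug-free class they ran over -0.233 to 0.0941 for Ccnd2, -0.0068 to 0.0435 for Ccne1, -0.0291 to 0.00139 for Cdk4 and -0.031 to 0.078 for Cdkn2d. For DMSO 1x against parental they ran over -0.016 to 0.017 for Ccnd3 and -0.012 to 0.079 for Ccne1. For Ccne1 they ran over -0.045 to 0.0062 in dasatinib 1x against DMSO 1x, -0.0078 to 0.032 in dasatinib 16x against DMSO 16x, and -0.0034 to 0.056 in the difference of steps. With 100 or more counts per library for each of the 10 genes, depth limits Ccnd1, Cdkn2d and Cdkn2a most, and comparisons with DMSO rest on 1 library.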
